A study of Homo sapiens with 5 samples.

Results

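Members of the LIM family were followed through the differentiation of human embryonic stem cells towards GnRH neurons. They were 7 LIM homeobox genes (ISL1, LHX1, LHX2, LHX5, LHX6, LHX8 and LHX9) and 3 LIM-only genes (LMO1, LMO3 and LMO4), chosen by symbol (10 genes in all) from the 36601 genes listed for the early libraries and the 33538 listed for the late ones. All 10 were listed in both. In short, LHX5 and LHX2 were far higher at D5 than in the stem cells, and at D5 XAV939 went with more LHX2 and less LHX5. At D10 most LHX1 and LHX9 UMIs came from a small set of cells high in STMN2, a neuronal transcript. At D22 to D26 both were higher in cells without DLX transcripts. ISL1 and LMO3 were higher in DLX-positive cells at D22, D24 and D26, LMO1 was higher there mainly at D22, and LHX6 was hardly detected at all.

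LIM homeodomain proteins carry a pair of LIM zinc-finger domains and a homeodomain that binds AT-rich DNA built around TAAT. The LIM domains bind the cofactor LDB1, which joins several of these proteins into one complex. LMO proteins have LIM domains but no homeodomain, so they can occupy LDB1 or bridge it to other factors. In the developing forebrain LHX2 is a selector of dorsal identity and eye fate, LHX1 and LHX5 mark several early-born neurons including Cajal-Retzius cells, and LHX9 is the close paralogue of LHX2. ISL1 is used in the striatal and cholinergic lineages of the ventral forebrain and in motor and hypothalamic neurons, and LHX6 and LHX8 in the lineages of the medial ganglionic eminence, which give cortical interneurons and cholinergic neurons. The DLX genes encode homeodomain factors of ventral GABAergic lineages, and GNRH1 encodes the precursor of the reproductive hormone GnRH.

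The cells were WA09, an embryonic stem cell line described as wild type. D0 is the undifferentiated culture. D5_dSMADi and D10_dSMADi had dorsomorphin and SB431542, which block both branches of SMAD signalling (dSMADi). D5_XAV939 and D10_XAV939 had the same plus XAV939, an inhibitor of canonical Wnt signalling, from D0. D22, D24 and D26 had dSMADi without XAV939, then FGF8, and then the Notch inhibitor DAPT, and their protocol included a freeze and thaw before replating. Each of the 8 conditions is 1 sample of 1 cell line, called a library here (the 5 conditions of D0 to D10 were tagged and share 1 droplet run), so no test between conditions was possible and no p-value is given. Intervals in brackets are 95% intervals and cover counting error only.

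After filtering, 1009 to 11056 cells remained per library, with 58073098 to 130440502 UMIs (counted molecules) and a median of 7180 to 69455 UMIs per cell. The pluripotency markers summed to 3964 CPM at D0, 159 to 333 at D5 and D10, and 56.9 or less later. The summed neuronal markers stood at 1917 CPM at D22, 10698 at D24 and 10457 at D26. Endothelial and leukocyte markers were at 0.33 CPM or lower in every library. D0 to D10 were tagged and run together, apart from D22 to D26 and with another gene annotation, so levels from these runs are set side by side without a ratio. Levels are in CPM, the UMIs of a gene divided by all UMIs of a group of cells and scaled to one common total, from the 3′ ends of transcripts, and compare one gene between groups, not one gene with another. A level of a whole library depends both on how many cells hold a gene and on how much each holds.

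By GENCODE v44 on GRCh38, the homeobox genes lie at 5:51383448-51394730 on the plus strand (ISL1), 17:36936785-36944612 plus (LHX1), 9:124001670-124033301 plus (LHX2), 12:113462033-113472280 minus (LHX5), 9:122202577-122229626 minus (LHX6), 1:75128434-75161533 plus (LHX8) and 1:197911902-197935478 plus (LHX9). The LIM-only genes lie at 11:8224309-8268716 minus (LMO1), 12:16548372-16610594 minus (LMO3) and 1:87328880-87348923 plus (LMO4). LHX5 overlaps its noncoding neighbour LHX5-AS1 by 300 bp on the opposite strand, and LMO3 overlaps MGST1 by 60888 bp on the opposite strand. Noncoding genes on the opposite strand also overlap LHX1 by 3408 bp, LHX2 by up to 3130 bp, LHX8 by up to 4625 bp and LMO3 by 6530 bp, and one on the same strand overlaps LHX2 by 585 bp. Counting by strand is not stated in the sources used here, so reads from these shared stretches are uncertain for all 5 genes.

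Upstream sequences of 4 genes are printed because the 3 LIM-only genes and ISL1 follow different courses below while sharing a protein family, and because LIM homeodomain factors bind TAAT-rich DNA. Each is the 250 bases before an annotated RefSeq start on GRCh38.p14, written 5′ to 3′ on the gene's strand in lower case, with TAATTA, a palindromic form of the homeodomain core that reads the same on both strands, in capitals. The LMO1 window is 11:8268788-8269037 (minus), the LMO3 window is 12:16608215-16608464 (minus, the most upstream of its 5 starts), the LMO4 window is 1:87328630-87328879 (plus) and the ISL1 window is 5:51383198-51383447 (plus). The first 3 hold no GENCODE exon, and the ISL1 window holds 1 exon of the noncoding gene ISL1-DT.
LMO1: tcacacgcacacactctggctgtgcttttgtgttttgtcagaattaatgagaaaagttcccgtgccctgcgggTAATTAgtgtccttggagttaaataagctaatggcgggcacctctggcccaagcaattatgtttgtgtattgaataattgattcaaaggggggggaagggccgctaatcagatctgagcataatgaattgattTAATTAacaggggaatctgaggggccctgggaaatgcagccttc
LMO3: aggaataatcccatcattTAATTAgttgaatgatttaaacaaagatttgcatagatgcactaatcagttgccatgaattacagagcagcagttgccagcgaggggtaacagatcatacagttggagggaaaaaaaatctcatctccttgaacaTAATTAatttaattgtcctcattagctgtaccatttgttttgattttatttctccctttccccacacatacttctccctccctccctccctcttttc
LMO4: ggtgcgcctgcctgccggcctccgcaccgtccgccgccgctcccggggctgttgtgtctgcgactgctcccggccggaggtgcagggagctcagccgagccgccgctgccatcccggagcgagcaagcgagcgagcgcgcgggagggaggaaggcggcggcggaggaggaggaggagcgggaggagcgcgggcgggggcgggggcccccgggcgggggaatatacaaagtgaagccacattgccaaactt
ISL1: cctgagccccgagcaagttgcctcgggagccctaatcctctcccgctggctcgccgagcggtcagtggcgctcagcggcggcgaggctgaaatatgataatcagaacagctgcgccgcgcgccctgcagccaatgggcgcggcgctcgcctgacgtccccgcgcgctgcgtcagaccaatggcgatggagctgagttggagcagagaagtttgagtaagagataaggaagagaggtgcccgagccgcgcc

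TAATTA occurred at 2 positions in the LMO1 window, 177 and 44 bases before the start, and at 2 positions in the LMO3 window, 232 and 97 bases before it. It was absent from the LMO4 and ISL1 windows, from the other 4 LMO3 windows, and from the windows of LHX2, LHX6, LHX8 and LHX9. Of 35116 RefSeq windows of this length, 4.35% held TAATTA. The shorter TAAT, counted on both strands and overlapping TAATTA, occurred 11 times in the LMO1 window, 10 times in the LMO3 window, 2 times in the ISL1 window and 0 times in the LMO4 window, and 47.4% of all windows held it. The 4 windows also differ in base composition, with GC at 45.6% for LMO1, 37.6% for LMO3, 65.2% for ISL1 and 74.4% for LMO4. A match of letters is a description and shows no binding. LHX1 and LHX5 were not analysed in this way.

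**Figure D1:**
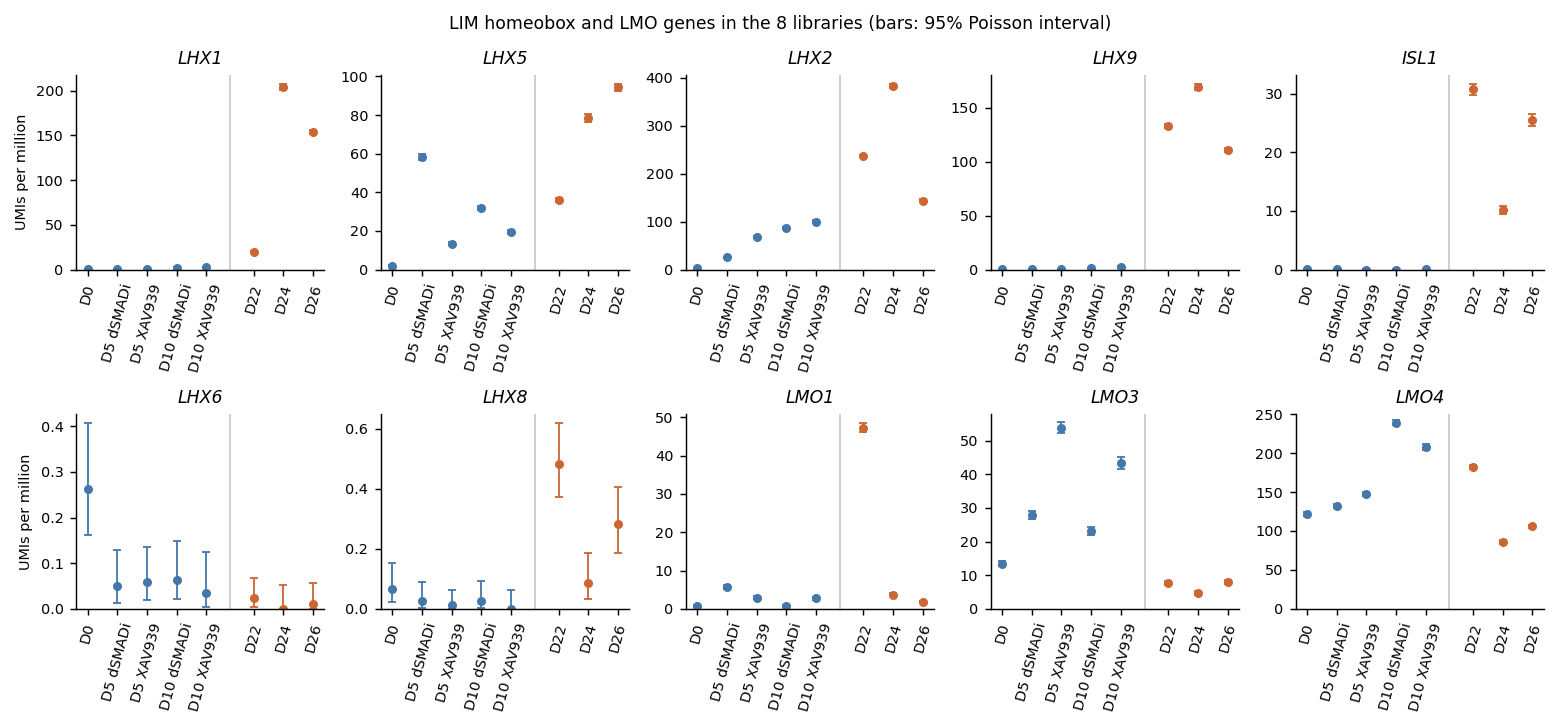
Level of each of the 10 genes in the 8 libraries, in CPM on linear axes that start at 0 and differ between genes; bars are 95% Poisson intervals, and the vertical line parts the tagged run (D0 to D10, blue) from D22 to D26 (orange). ISL1 is at or near 0 up to D10 and between 10.1 and 30.8 CPM from D22 on, whereas LMO4 stays between 86.0 and 239 CPM throughout.

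The first comparisons ask what neural induction does to these genes, and LHX5 and LHX2 differed most from D0 among the members with enough counts. LHX5 stood at 1.87 (1.58 to 2.20) CPM at D0 and 58.4 (56.7 to 60.1) at D5_dSMADi, a log2 ratio of 4.96 (4.72 to 5.22). LHX2 went from 3.50 (3.1 to 3.95) to 25.3 (24.2 to 26.4) CPM, a log2 ratio of 2.85 (2.66 to 3.04). LMO3, the LIM-only gene best known from the nervous system, differed less, from 13.4 to 28.0 CPM (log2 ratio 1.06, interval 0.95 to 1.16). Of the 10 genes, 4 had enough counts for the 2-fold comparison (at least 50 UMIs over both groups and 10 CPM in one), and 3 of these were at least 2-fold higher and 0 lower. Over all genes tested in the same way, 8.24% were at least 2-fold higher and 17.0% lower. LHX5 and LHX2 met the limit of 10 CPM only through D5, so at their D0 levels their calls were fixed by the limit. LMO4, the fourth, was already high in stem cells at 122 CPM and was 132 CPM at D5. Below the limit on CPM, LMO1 went from 0.751 (0.569 to 0.973) to 5.67 (5.16 to 6.22) CPM (log2 ratio 2.92, interval 2.52 to 3.34) and LHX9 from 2 to 24 UMIs (3.52, interval 1.51 to 6.64).

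From D5 to D10 under dSMADi, LHX2 went on to 87.3 (85.2 to 89.4) CPM (log2 ratio 1.79, interval 1.72 to 1.86) while LHX5 was lower, at 31.9 (30.6 to 33.1) CPM (-0.87, interval -0.94 to -0.80). LMO4 was at 239 CPM, 0.86 (0.82 to 0.89) on the log2 scale. LHX2 was thus the 1 of 4 tested genes past 2-fold, with 5.15% of all genes that far higher and 1.35% that far lower. With XAV939, none of the 4 tested genes passed 2-fold between D5 and D10 (all genes 4.12% higher and 1.37% lower). There the log2 ratios were 0.57 (0.51 to 0.62) for LHX2, 0.54 (0.43 to 0.66) for LHX5 and 0.50 (0.46 to 0.53) for LMO4. LHX5 was therefore lower at D10 than at D5 without XAV939 and higher with it, a difference that could not be tested. The higher level with XAV939 was carried mainly by 66 cells at or above 1000 CPM of STMN2, a neuronal transcript, which held 309 of the 1135 LHX5 UMIs of D10_XAV939. Without such cells, a setting chosen after seeing the data, the log2 ratio of LHX5 was 0.13 (-0.00 to 0.26) with XAV939 and -0.90 (-0.97 to -0.83) without it.

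The comparison of XAV939 with dSMADi alone asks how Wnt inhibition bears on these genes, and at D5 it separated LHX2 from LHX5. LHX2 stood at 67.5 (65.8 to 69.2) CPM with XAV939 against 25.3 (24.2 to 26.4) without, a log2 ratio of 1.42 (1.34 to 1.49). LHX5 stood at 13.4 (12.6 to 14.2) against 58.4 (56.7 to 60.1) CPM, a log2 ratio of -2.12 (-2.22 to -2.03). The noncoding LHX5-AS1, which starts beside LHX5, was lower too (-1.35, interval -1.42 to -1.28). Shares of cells showed the same order after each cell was thinned to 10000 UMIs: LHX2 was found in 47.3% (45.4 to 49.1) of D5_XAV939 cells and 20.8% (19.2 to 22.5) of D5_dSMADi cells, and LHX5 in 11.2% (10.1 to 12.4) and 42.1% (40.1 to 44.1). Median depth before thinning was 26630 and 28789 UMIs, and D0, which had the same thinning, held LHX5 in 2.08% and LHX2 in 3.77% of cells.

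LHX2 and LHX5 made up the 2 of 4 tested genes past 2-fold at D5, 1 in each direction, where 0.611% of all genes were that far higher and 0.575% that far lower. LMO3 lay just inside that fold, at 53.8 against 28.0 CPM (0.94, interval 0.87 to 1.02), and LMO4 differed little (0.16, interval 0.12 to 0.20). At D10 the ratios of LHX2 and LHX5 over all cells were nearer 0. LHX2 was at 99.8 CPM with XAV939 and 87.3 without (0.19, interval 0.14 to 0.24), LHX5 at 19.5 and 31.9 (-0.71, interval -0.81 to -0.60), and LMO3 at 43.3 and 23.1 (0.91, interval 0.82 to 0.99). None of the 4 tested genes passed 2-fold at D10 (all genes 1.21% higher and 1.41% lower). Without the cells high in STMN2, LHX5 did pass it, at 14.6 against 31.2 CPM (-1.09, interval -1.21 to -0.98), with an interval that reaches below 2-fold. Below the limit on CPM, LMO1 with XAV939 was lower at D5, at 2.87 (2.53 to 3.25) against 5.67 (5.16 to 6.22) CPM (-0.98, interval -1.21 to -0.76), and higher at D10, at 2.72 (2.31 to 3.18) against 0.711 (0.537 to 0.923) (1.94, interval 1.49 to 2.40). LHX9 was higher with XAV939 at both days, at 0.634 against 0.301 CPM at D5 (1.07, interval 0.36 to 1.83) and 2.51 against 0.978 at D10 (1.36, interval 0.95 to 1.78). At D10 this direction rested on a larger number of cells high in STMN2, 66 against 17, and was not seen within either class of cells. Within those cells LHX9 was lower with XAV939, at 85.8 against 174 CPM, but 38 of the 61 UMIs of D10_dSMADi lay in 3 cells and the thinned shares overlapped, at 45.5% (33.1 to 58.2) against 58.8% (32.9 to 81.6). In the rest it was at 0.0886 against 0.204 (-1.20, interval -3.01 to 0.31, from 5 and 16 UMIs). ISL1 was at 0 UMIs in D5_XAV939 and D10_dSMADi, which allows up to 0.0346 and 0.0381 CPM, and at 1 to 4 UMIs in the other early libraries, so an effect of XAV939 on ISL1 was not detectable at this depth.

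At D10 a few cells stood out by STMN2, which encodes a growth-associated protein of young neurons, and they held most of the UMIs of LHX1 and LHX9. With a limit of 1000 CPM of STMN2 there were 17 such cells among 2416 in D10_dSMADi and 66 among 2168 in D10_XAV939. In D10_dSMADi, LHX1 was at 432 (366 to 507) CPM in these cells and 0.128 (0.0612 to 0.235) in the rest (log2 ratio 11.73, interval 10.81 to 12.82), and LHX9 at 174 (133 to 223) and 0.204 (0.117 to 0.331) (9.73, interval 8.92 to 10.63). In D10_XAV939, LHX1 was at 81.5 (68.3 to 96.6) against 0.106 (0.0390 to 0.231) CPM (9.58, interval 8.42 to 11.05), and LHX9 at 85.8 (72.2 to 101) against 0.0886 (0.0288 to 0.207) (9.92, interval 8.66 to 11.56). In D10_dSMADi 152 of 162 LHX1 UMIs and 61 of 77 LHX9 UMIs lay in these cells, and in D10_XAV939 134 of 140 and 141 of 146. Cells outside with a UMI numbered 10 for LHX1 and 14 for LHX9 in D10_dSMADi, against 15 and 10 inside, so LHX9 was found in more cells outside than inside there. LHX1 UMIs were present in 15 of 17 and 32 of 66 of these cells, and the richest cell held 29 and 14 of them.

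LHX5 joined them, at 176 against 31.2 CPM in D10_dSMADi (2.50, interval 2.11 to 2.86) and 188 against 14.6 in D10_XAV939 (3.68, interval 3.49 to 3.87). LHX2 and LMO4 were lower in these cells, with log2 ratios of -1.77 (-2.90 to -0.85) and -2.94 (-3.94 to -2.10) in D10_dSMADi and -0.60 (-0.89 to -0.33) and -1.21 (-1.45 to -0.98) in D10_XAV939. LMO1 rested on 4 UMIs in D10_dSMADi, and LMO3 was lower in D10_XAV939 (-1.79, interval -2.49 to -1.18). In D10_dSMADi 6 of 7 tested genes passed 2-fold, 4 higher and 2 lower, with 20.4% of all genes that far higher and 19.5% that far lower. In D10_XAV939 it was 5 of 6, 3 higher and 2 lower, against 10.8% and 11.9% of all genes. LHX1 and LHX9 in both libraries, and LMO1 in D10_dSMADi, met the limit of 10 CPM only through the STMN2-high cells. At their levels in the other cells, these calls were fixed by the limit. At these backgrounds the count of genes past 2-fold says little, and the size of the LHX1 and LHX9 ratios is the measurement to read.

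The neuronal markers summed to 5717 and 4671 CPM in these cells, and the dividing markers to 71.1 and 710.0. The neuronal list includes STMN2, by which the cells were chosen, so its sum was raised by that choice. CRABP1, a retinoic acid binding protein, was at 9321 and 9714 CPM in these cells, with no level of the other cells given here. SST, the neuropeptide somatostatin, was at 586 and 1050.1 against 0.383 and 0.567 in the other cells. It is 1 of 12 listed genes of the ventral forebrain, 5 of which were tested in each library. Of these, 2 were at least 2-fold higher and 3 lower in D10_dSMADi, and 2 and 2 in D10_XAV939, beside the shares of all genes given above. SST met the limit on CPM only through these cells. The share of doublet-like cells was 5.88% (1 of 17 cells) and 13.6%, against 6.0% and 5.76% among the others. Its part in the result was not tested beyond leaving these cells out as an alternative.

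**Figure D2:**
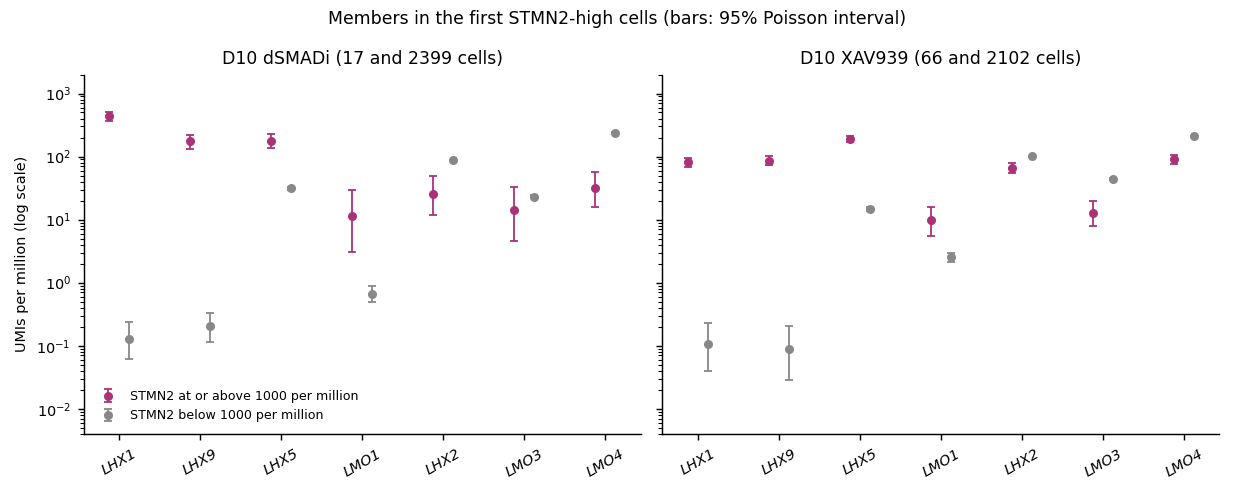
Level of 7 genes at D10 in cells at or above 1000 CPM of STMN2 (purple) and in the other cells of the same library (grey), in CPM on a log axis with 95% Poisson intervals; the cell numbers stand above each panel. LHX1, LHX9 and LHX5 are higher in the STMN2-rich cells of both libraries, and LHX2 and LMO4 are lower.

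The comparison of D22, D24 and D26 asks how the genes move as DAPT-treated progenitors become neurons. LHX1 was at 20.1 (19.3 to 20.9) CPM at D22, 204 (201 to 208) at D24 and 154 (152 to 157) at D26. LHX5 took the values 35.9 (34.9 to 36.9), 78.5 (76.4 to 80.6) and 94.3 (92.4 to 96.3). LHX9 was already at 133 (131 to 135) at D22 and stood at 169 (166 to 172) and 111 (108 to 113) afterwards. LHX1 differed most of the 3 between D22 and D24, with log2 ratios for D24 over D22 of 3.35 (3.29 to 3.41) for LHX1, 1.13 (1.07 to 1.19) for LHX5 and 0.35 (0.31 to 0.38) for LHX9. LHX2 was highest at D24, with 237 (234 to 239.8), 383 (378 to 387) and 144 (142 to 146) CPM.

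The LIM-only genes and ISL1 went another way from D22 to D24. LMO1 stood at 47.3 (46.1 to 48.5) CPM at D22 and only 3.73 (3.30 to 4.22) and 1.83 (1.57 to 2.12) at D24 and D26, a log2 ratio of -3.66 (-3.85 to -3.48) for D24 over D22. ISL1 was at 30.8 (29.8 to 31.7), 10.1 (9.42 to 10.9) and 25.5 (24.5 to 26.5) CPM, lower and then higher again. LMO4 was at 182 (179.6 to 184), 86.0 (83.9 to 88.2) and 106 (104 to 108). LMO3 stayed low throughout, at 7.67 (7.20 to 8.16), 4.69 (4.2 to 5.23) and 7.87 (7.33 to 8.44) CPM, with the D22 and D26 intervals overlapping. Between D22 and D24, 5 of 7 tested genes passed 2-fold, LHX1 and LHX5 higher and ISL1, LMO1 and LMO4 lower (all genes 10.2% higher and 12.9% lower). LMO1 met the limit on CPM only through D22, so at its D24 level its call was fixed by the limit. Between D24 and D26, 2 of 6 passed it, ISL1 higher (1.33, interval 1.21 to 1.45) and LHX2 lower (-1.41, interval -1.44 to -1.38), where 7.37% of all genes were that far higher and 2.03% that far lower. DLX-positive cells made up 7.95%, 3.91% and 13.1% of the 3 libraries. They were called on at least 3 DLX UMIs without thinning, and median depth was 12179, 7180 and 8485 UMIs, so this share depends on depth. The difference in ISL1 between D22 and D24 lay mostly in DLX-zero cells, which held 2575 of 4012 ISL1 UMIs at D22, 172 of 712 at D24 and 413 of 2538 at D26.

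D22 still held dividing cells, taken as those with at least 3 UMIs of MKI67 and TOP2A together (2357 cells) against those with 0 (5898 cells). LHX1, LHX5 and LHX9 were all lower in the dividing cells, at 4.05 against 30.1 CPM (log2 ratio -2.89, interval -3.13 to -2.66), 15.7 against 49.0 (-1.64, interval -1.77 to -1.52) and 65.7 against 172 (-1.38, interval -1.44 to -1.32). These were the 3 of 7 tested genes past 2-fold, all lower, where 4.55% of all genes were that far lower and 7.46% that far higher. LHX1 met the limit on CPM only through the cells that did not divide, so its call was fixed by the limit. LHX2 (-0.25, interval -0.28 to -0.21), LMO1 (-0.39, interval -0.48 to -0.30), ISL1 (-0.37, interval -0.48 to -0.26) and LMO4 (0.21, interval 0.17 to 0.25) differed by less. Within DLX-positive cells alone LHX2 turned to higher in dividing cells, at 175 against 131 CPM (log2 ratio 0.42), and LHX9 differed far less between dividing and other cells (log2 ratio -0.10), a split chosen after seeing the data. After thinning to 1500 UMIs, the LHX2 shares of these cells overlapped, at 20% (14.8 to 26.1) of 210 dividing and 17.0% (13.5 to 20.9) of 424 other DLX-positive cells. LHX5 was then found in 1 of the 210 and 2 of the 424, too few to compare. Dividing cells were deeper, with a median of 15771 UMIs against 11724, and 10.9% against 3.8% of them were doublet-like. Among DLX-positive cells these shares were 15.2% and 5.90%.

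DLX status, the next comparison, divides the cells by genes of the GABAergic lineage. Most but not all cells at or above 3000 CPM of GNRH1 were DLX-positive, 210 of 345 at D24 and 738 of 999 at D26, and 35 and 89 were DLX-zero. Cells with at least 3 UMIs of DLX1, DLX2 and DLX5 together were called DLX-positive (757 at D22, 356 at D24 and 1447 at D26), and cells with none DLX-zero (8114, 8523 and 9130). The cells between, 652, 228 and 479, were left out. GABAergic markers (GAD1, GAD2, SLC32A1, SCGN and DLX6-AS1) summed to 215, 908 and 838 CPM in DLX-positive cells and 0.693, 4.83 and 5.39 in DLX-zero cells. DLX6-AS1, a transcript of the DLX5 and DLX6 locus and so close to the genes that chose the cells, made up 138, 484 and 338 of the former sums, and GAD2, which makes GABA, stood at 43.4, 281 and 199.6 CPM against 0.192, 2.82 and 2.32. Glutamatergic markers summed to 71.8, 699 and 1131 in DLX-zero cells and 11.5, 85.5 and 194 in DLX-positive cells, with NEUROD6 at 1 UMI or fewer in each.

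ISL1 was higher in DLX-positive cells on each day. It stood at 93.3 (87.7 to 99.2) against 23.5 (22.6 to 24.4) CPM at D22, 91.9 (81.8 to 103) against 2.65 (2.27 to 3.07) at D24 and 109.7 (105 to 115) against 5.17 (4.69 to 5.70) at D26. The log2 ratios were 1.99 (1.88 to 2.10), 5.12 (4.84 to 5.40) and 4.41 (4.25 to 4.57). The study had itself named ISL1, together with DLX genes, from these same libraries among genes of its GnRH branch, so this direction is not independent evidence. The level in DLX-positive cells moved little over these days, while that in DLX-zero cells was lower at D24 and D26 than at D22. After thinning to 1500 UMIs, ISL1 was found in 13.5% (11.1 to 16.1), 14% (10.6 to 18.1) and 13.5% (11.8 to 15.3) of DLX-positive cells and 3.41% (3.03 to 3.83), 0.235% (0.143 to 0.362) and 0.646% (0.492 to 0.833) of DLX-zero cells. Before thinning the median depth was 12203, 8436 and 9448 UMIs in the former and 12126, 7125 and 8346 in the latter.

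LMO3 was also higher in DLX-positive cells, at 21.3 (18.6 to 24.2) against 6.42 (5.96 to 6.91) CPM at D22, 50.9 (43.4 to 59.3) against 1.74 (1.43 to 2.09) at D24 and 32.6 (29.8 to 35.6) against 2.79 (2.44 to 3.19) at D26. Its log2 ratios were 1.73 (1.51 to 1.94), 4.87 (4.52 to 5.23) and 3.55 (3.32 to 3.78). LMO1 was at 165 (157 to 173) against 33.4 (32.3 to 34.5) CPM at D22, a log2 ratio of 2.30 (2.22 to 2.39), and thinned DLX-positive cells held it in 22.1% (19.2 to 25.2) of cases against 4.87% (4.41 to 5.36). By D24 it was at 5.86 (3.53 to 9.16) and 3.56 (3.11 to 4.04) CPM, and at D26 at 4.02 (3.08 to 5.17) and 1.33 (1.09 to 1.61), too low for the counts of genes past 2-fold. LMO4 differed less, and not in one direction: its log2 ratio was -0.36 (-0.44 to -0.29) at D22, -0.32 (-0.52 to -0.12) at D24 and 0.46 (0.39 to 0.53) at D26.

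LHX1, LHX5, LHX9 and LHX2 lay on the DLX-zero side. LHX1 was at 5.27 (4.00 to 6.81) against 22.6 (21.7 to 23.5) CPM at D22, 28.1 (22.6 to 34.5) against 218 (214 to 221) at D24 and 28.7 (26.1 to 31.6) against 181 (178 to 184) at D26. LHX5 was at 6.82 against 40.4, 10.2 against 83.5 and 20.3 against 110.4 CPM, and LHX9 at 21.8 against 151, 29.0 against 178 and 17.5 against 130.3. Their log2 ratios lay between -3.04 and -2.10. LHX2 differed little at D22 and more later, at 157 (149.6 to 164) against 247 (244 to 249.9), 58.0 (50.0 to 66.9) against 406 (401 to 411) and 43.7 (40.4 to 47.2) against 166 (163 to 168) CPM, with log2 ratios of -0.65 (-0.73 to -0.58), -2.81 (-3.02 to -2.60) and -1.92 (-2.04 to -1.81). These 4 genes had been picked as markers of the glutamatergic cluster from these same libraries by the study, so their direction here is not independent evidence. The noncoding neighbours lay on the same side, LHX5-AS1 with log2 ratios of -2.37 (-2.52 to -2.23), -2.90 (-3.06 to -2.74) and -2.49 (-2.55 to -2.42) and LHX1-DT with -2.84 (-3.75 to -2.06), -2.26 (-2.81 to -1.76) and -2.38 (-2.60 to -2.17).

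In counts, 6 of 8 tested genes passed 2-fold at D22, 3 higher (ISL1, LMO1, LMO3) and 3 lower (LHX1, LHX5, LHX9). At D24 and at D26 it was 6 of 7, with ISL1 and LMO3 higher and LHX1, LHX2, LHX5 and LHX9 lower. Over all genes tested, 1.59% were that far higher and 2.66% lower at D22, 2.21% and 4.83% at D24, and 2.17% and 3.16% at D26. The members were chosen with these results known, so these counts describe them and are no support for a pattern. ISL1 at D24, and LMO3 at D24 and D26, met the limit on CPM only through DLX-positive cells. At their levels in DLX-zero cells, those calls were fixed by the limit. ISL1 at D26 and LMO3 at D22 also met it only through DLX-positive cells, and LHX1 and LHX5 at D22 only through DLX-zero cells. Their levels in the other group, 5.17, 6.42, 5.27 and 6.82 CPM in that order, did not fix these calls, but the limit favoured them. In the cells between, LHX1, LHX2, LHX5 and LHX9 lay between the other groups on all 3 days, as with LHX9 at 54.5 CPM at D22. ISL1 did so at D22 (41.8) and D26 (103) but at D24 was at 125 (109.5 to 142) CPM there, above the 91.9 (81.8 to 103) of DLX-positive cells. LMO4 was also highest in the cells between at D24 and D26, at 113 and 196 CPM.

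**Figure D3:**
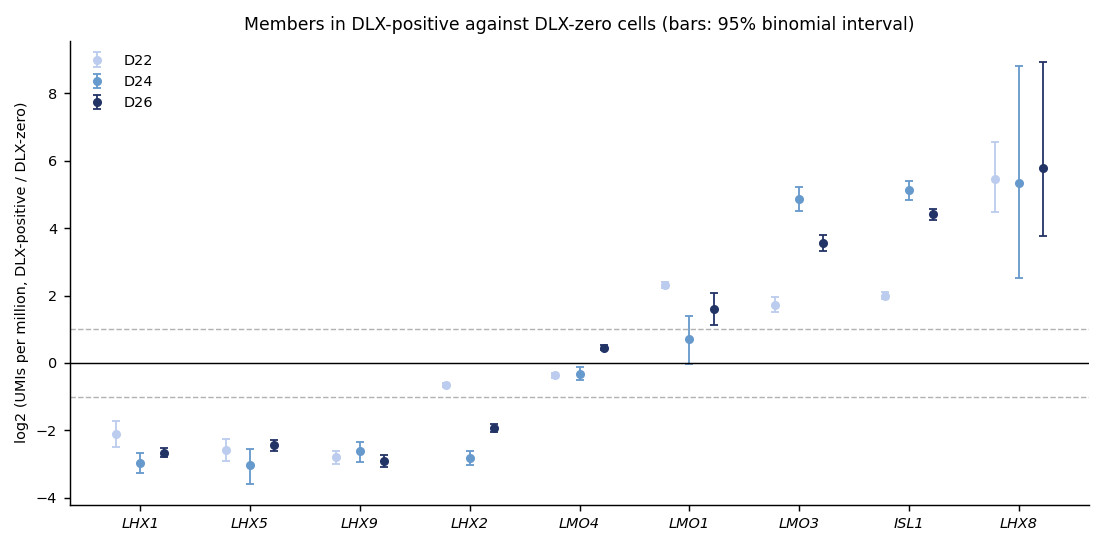
Log2 ratio of the CPM in DLX-positive cells over that in DLX-zero cells at D22, D24 and D26 for 9 genes, with 95% binomial intervals; the dashed lines mark 2-fold in either direction. ISL1 and LMO3 lie above the upper line and LHX1, LHX5 and LHX9 below the lower one on each day, LMO4 changes side between D24 and D26, and LHX8 has wide intervals.

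The UMIs left on the other side were compared with those of marker genes. LHX1 in DLX-positive cells stood at 23.3%, 12.9% and 15.9% of its level in DLX-zero cells, LHX5 at 16.9%, 12.2% and 18.4%, and LHX9 at 14.5%, 16.2% and 13.5%. The glutamatergic marker TBR1 stood at 12.6%, 11.8% and 16.9%, PPP1R17 at 22.4%, 11.5% and 17.8%, and SLC17A6 at 10.1%, 14.7% and 16.2%. The source of these UMIs was not tested. ISL1 in DLX-zero cells was at 25.2% of its DLX-positive level at D22, and LMO3 at 30.2%. The GABAergic markers listed above ran there from 0.0726% for DLX6-AS1 to 2.79% for GAD1. At D24 and D26 ISL1 was at 2.88% and 4.72%. At D24 GAD1 was higher than ISL1, at 3.94%, and the other GABAergic markers lay between 0.140% and 1.00%. At D26 these markers ran from 0.352% for DLX6-AS1 to 1.51% for GAD1. Among DLX-positive cells 8.72%, 9.27% and 9.26% were doublet-like, against 5.68%, 5.78% and 5.36% of DLX-zero cells, and the part of doublets was not tested beyond leaving them out.

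The DLX-zero cells with ISL1 at D22 had less TBR1, SLC17A6, PPP1R17 and STMN2 than DLX-zero cells without ISL1, and differed less in LHX2 and LHX9. There were 213 DLX-zero cells with at least 3 ISL1 UMIs at D22, against 155 DLX-positive ones, and only 22 and 49 at D24 and D26. At D22 they held the glutamatergic marker TBR1 at 1.91 CPM against 37.3 in DLX-zero cells with no ISL1 UMI, SLC17A6 at 1.59 against 14.6, PPP1R17 at 4.14 against 34.9, and STMN2 at 584 against 1623. SIX3, a factor of the anterior forebrain and eye field, was at 305 against 214 CPM, and LMO1 at 43.3 against 31.3. Lower members were LHX1 at 15.0 against 25.2, LHX5 at 29.0 against 43.0 and LMO3 at 3.82 against 7.23 CPM, the last from 12 UMIs. LHX2 was at 219 against 251, LHX9 at 128 against 152 and GNRH1 at 0.637 against 0.536 CPM, and 20.7% against 22.6% of the cells were dividing. The few such cells of later days were unlike those of D22 in GNRH1, at 3148 against 47.7 CPM at D24 and 5294 against 105 at D26. Since ISL1 and DLX chose the cells, this is a description.

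The DLX difference at D22 was present in dividing and in non-dividing cells. In cells without MKI67 and TOP2A, ISL1 was at 110.2 CPM when DLX-positive (424 cells) and 23.6 when DLX-zero (5188 cells), and LMO1 at 192 and 36.8. In dividing cells ISL1 was at 63.9 (210 cells) and 19.2 CPM (1880 cells), and LMO1 at 114 and 26.6. Both genes were thus higher in DLX-positive cells within either class. LHX1 had its highest level in DLX-zero cells that did not divide, at 32.8 CPM against 4.57 in dividing ones.

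LHX6 and LHX8, the homeobox genes of the medial ganglionic eminence, were scarce. LHX6 had 20 UMIs at D0, 4, 5, 5 and 2 in the D5 and D10 libraries in the order D5_dSMADi, D5_XAV939, D10_dSMADi and D10_XAV939, and 3, 0 and 1 at D22, D24 and D26, where a count of 0 allows up to 0.0428 CPM. LHX8 had at most 5 UMIs in any early library and 63, 6 and 28 in the late ones. Of the LHX8 UMIs at D22, 48 were in DLX-positive and 11 in DLX-zero cells, a log2 ratio of 5.44 (4.48 to 6.54). At D22 they were spread over 51 cells, but at D26 16 of the 21 UMIs in DLX-positive cells came from 3 cells.

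Within DLX-positive cells, the comparison by GNRH1 asks whether these genes move with the hormone. Cells at or above 3000 CPM of GNRH1 numbered 6 at D22, 210 at D24 and 738 at D26, against 751, 146 and 709 below. At D26 LMO3 was lower in the high cells, at 21.1 (18.1 to 24.6) against 45.5 (40.7 to 50.7) CPM (log2 ratio -1.10, interval -1.38 to -0.83), and ISL1 was higher, at 133 (125 to 141) against 84.2 (77.6 to 91.2) (0.65, interval 0.51 to 0.80). LMO4 followed ISL1, at 146 against 117 CPM (0.32, interval 0.19 to 0.45). LHX8 had 0 UMIs in the high cells, which allows up to 0.375 CPM, and 21 in the others, 16 of them in 3 cells. Of 7 tested genes 1 was at least 2-fold lower and 0 higher, where 0.350% of all genes were that far lower and 0.229% that far higher. With GNRH1 split at 1000 CPM in place of 3000 the LMO3 ratio was -0.92, and against cells with 0 UMIs of GNRH1 it was -0.80, both short of 2-fold.

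At D24, where fewer cells were compared, ISL1 was at 96.0 (82.7 to 111) against 86.0 (70.8 to 103) CPM (0.16, interval -0.19 to 0.51) and LMO3 at 60.2 (49.8 to 72.2) against 37.3 (27.6 to 49.3) (0.69, interval 0.20 to 1.20). LMO4 was at 63.8 and 76.8 CPM (-0.27, interval -0.66 to 0.13). None of 6 tested genes passed 2-fold (all genes 0.805% higher and 0.805% lower). The direction of LMO3 thus differed between D24 and D26, and this was not tested. At D22 the 6 high cells held 14 LMO3 UMIs and 1 ISL1 UMI, too few for a comparison.

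In 4 steps of GNRH1 (below 3000, 3000 to 10000, 10000 to 30000, and 30000 CPM or more), ISL1 at D26 stood at 84.2, 84.2, 137 and 156 CPM. LMO4 stood at 117, 99.8, 144 and 174, and LMO3 at 45.5, 39.2, 14.4 and 16.8. At D26 ISL1 and LMO4 were therefore highest, and LMO3 low, in the steps from 10000 upward. At D24 ISL1 was at 86.0, 139, 89.2 and 73.5 and LMO3 at 37.3, 41.1, 68.8 and 61.0, without that order. LHX1 was lowest in the last step on both days, at 5.38 CPM at D24 against 25.1 in the first, and 15.2 at D26 against 32.9. The D24 value of the last step rests on 3 UMIs in 66 cells. The share of doublet-like cells was also lowest in the highest step of GNRH1, at 0% against 13.0% at D24 and 3.26% against 9.87% at D26, and its part was not tested. GNRH1 itself takes a share of all UMIs in these cells. Leaving it out of the total together with mitochondrial and ribosomal genes gave log2 ratios at D26 of 0.67 for ISL1 and -1.09 for LMO3.

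**Figure D4:**
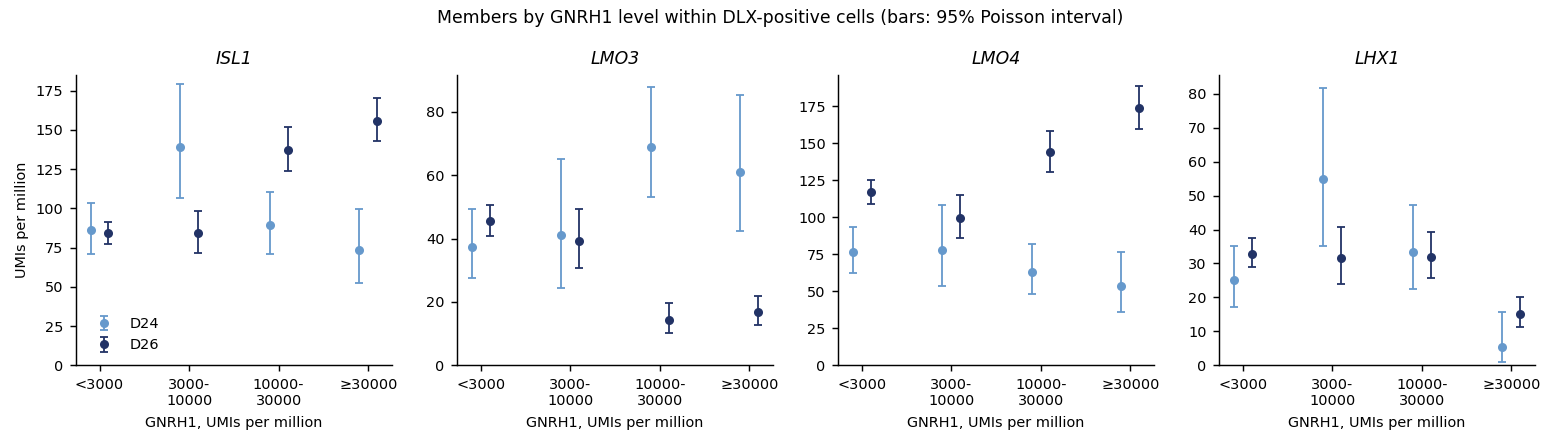
Levels of ISL1, LMO3, LMO4 and LHX1 in DLX-positive cells of D24 and D26 in 4 steps of GNRH1 level, in CPM with 95% Poisson intervals. At D26 ISL1 goes from 84.2 to 156 CPM and LMO3 from 45.5 to 16.8 between the lowest and the highest step.

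Within DLX-positive cells LMO4 was more frequent in cells with ISL1 than in cells without it at D24 and D26. Only cells with at least 5000 UMIs entered these shares, so they describe the deeper cells. With each cell drawn to 5000 UMIs, LMO4 was present in 43.1% (38.5 to 47.8) of ISL1-containing and 26.8% (23.9 to 29.8) of other DLX-positive cells at D26, and in 36.6% (27.3 to 46.8) and 17.0% (12.4 to 22.4) at D24. At D22 the shares were 44.1% (38.1 to 50.2) and 43.5% (39.0 to 48.0). LMO1 at D22 was present in 59.3% (53.1 to 65.2) of cells with ISL1 and 45.2% (40.7 to 49.7) without it. LMO3 showed the opposite order at D26, 7.33% (5.10 to 10.1) against 11.7% (9.71 to 14), but not at D24, 30.7% (21.9 to 40.7) against 17.4% (12.8 to 22.9). Cells with at least 3 ISL1 UMIs gave the same order for LMO4 at D26 by level. LMO4 was at 246 CPM in the 236 such DLX-positive cells and 87.2 in those without ISL1, and GNRH1 at 21533 and 11116. GNRH1 had the other order earlier, at 11288 with ISL1 and 14560.4 without it at D24, and 10.1 and 92.7 at D22. Since a deeper cell shows more of every gene, the drawn shares are the safer of these measures.

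**Figure D5:**
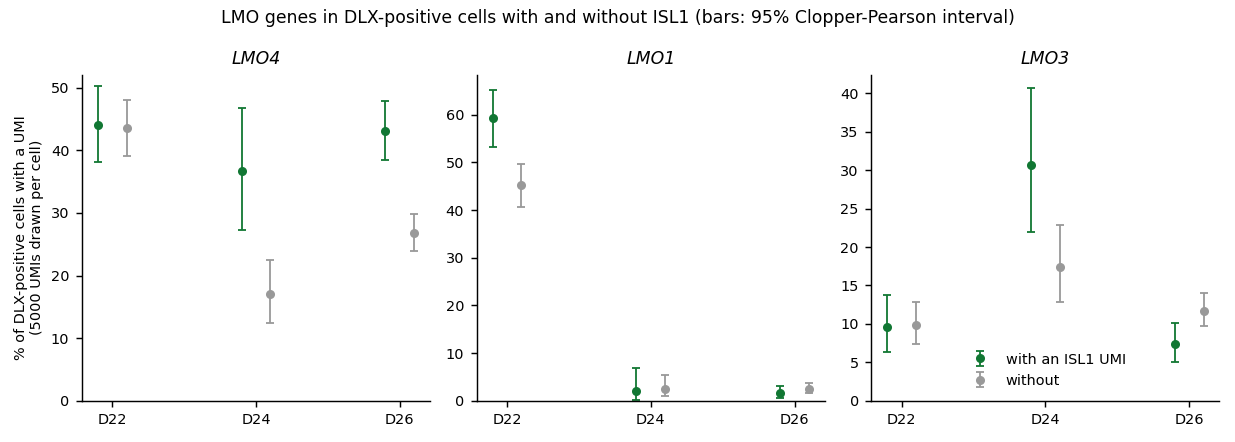
Share of DLX-positive cells with a UMI of LMO4, LMO1 or LMO3 at D22, D24 and D26, after 5000 UMIs were drawn from each cell that had at least 5000, for cells with (green) and without (grey) an ISL1 UMI; bars are 95% Clopper-Pearson intervals and axes differ between panels. For LMO4 the intervals part at D24 and D26 but not at D22, and for LMO1 they part at D22.

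In DLX-zero cells the LHX genes overlapped broadly. At D24 LHX1 was present in 60.8% (59.2 to 62.4) of cells with LHX9 and 50.9% (49.3 to 52.5) without, and LHX9 in 53.2% (52.0 to 54.5) of cells with LHX2 and 36.1% (33.8 to 38.5) without. At D26 LHX1 was in 57.0% (55.3 to 58.8) of cells with LHX9 and 44.5% (43.1 to 45.9) without, but in 47.6% (45.9 to 49.3) with LHX5 and 50.5% (49.1 to 52.0) without. ISL1 was seldom seen with LHX2 at D24, being present in 0.117% (0.0472 to 0.242) of DLX-zero cells with LHX2 and 2.62% (1.91 to 3.52) without it. Before UMIs were drawn, only 72 DLX-zero cells of D24 held ISL1. By level, DLX-zero cells with at least 3 ISL1 UMIs held LHX2 at 86.9 CPM at D24, against 409 in those without ISL1. The values were 69.3 against 167 at D26 but 219 against 251 at D22, so the difference was small at D22.

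The other LIM genes and the partners of the family were counted in the same way. Of these 12 (ISL2, LHX3, LHX4, LMX1A, LMX1B, LMO2, LDB1, LDB2, SSBP2, SSBP3, SSBP4 and RLIM), 5 or 6 could be tested in each comparison. Between DLX-positive and DLX-zero cells, 0 of 6 passed 2-fold at D22 and D26, and LMO2 alone did at D24, at 27.8 against 76.7 CPM (-1.47, interval -1.78 to -1.16). Over all genes, 1.59% were that far higher and 2.66% lower at D22, 2.21% and 4.83% at D24, and 2.17% and 3.16% at D26. At these shares the counts say little about the partners. The median log2 ratio of the tested list was -0.12, -0.31 and -0.13 at D22, D24 and D26. LDB1, the cofactor all members bind, was at 18.1 CPM at D0, 25.4 at D10_dSMADi, 28.1 at D22, 23.0 at D24 and 38.3 at D26. LMO2 was higher in the STMN2-rich cells of D10, with log2 ratios of 4.03 (2.79 to 5.06) and 4.16 (3.73 to 4.58), and lower in dividing cells of D22 (-2.22, interval -2.37 to -2.08). From D0 to D5_dSMADi, SSBP2, which stabilises LDB1, was higher (2.83, interval 2.76 to 2.91) and LDB2 lower (-1.85, interval -1.97 to -1.72).

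For each member the 3 genes with the most similar course over 14 groups of cells were taken from 8781 genes by Pearson's r of log2(CPM + 1), as a description, since groups of 1 library share its depth and composition. LHX1 was most like TBR1 (r = 0.991), its neighbour LHX1-DT (0.984) and SLC17A6 (0.983), and LHX9 like RSPH4A (0.970), C1orf53 (0.957) and CORO2B (0.955). LHX2 was most like AC006450.3 (0.973) and DACH1 (0.966), and LHX5 like LHX5-AS1 (0.907). ISL1 was most like LINC00461 (0.932), RASD1 (0.912) and AFF2 (0.909), and LMO1 like HOMER3 (0.902). LMO4 was most like PSMD10 (0.925). The value for LMO3, 0.838 with FUBP3, rests on its level in a group of 6 cells, and LHX8 (0.816 with GSX2) reached no more than 4.39 CPM in any of the groups. The group of 6 cells, the DLX-positive cells of D22 high in GNRH1, is 1 of the 14 for every member. The 14 also mix the tagged run with the later libraries and their other annotation, so every r above depends on both.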

How the data were processed

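Droplet 3′ single-cell RNA sequencing was analysed in 8 libraries, 5 of which are tagged conditions of 1 droplet run. The authors aligned reads to GRCh38 and deposited UMI counts per gene and barcode without normalization. File headers name Cell Ranger 6.1.2 for D0 to D10 and 3.1.0 for D22 to D26, while the submitters' notes name 3.1. In each tagged library 95.09% to 95.63% of tag UMIs were the labelled tag. Cells were kept by the study's limits on UMIs, genes, complexity and mitochondrial share. The complexity limit stated for D0 left 1 cell and was not applied there, which gave 1009. Barcodes shared between libraries numbered 0 to 32. Doublets were kept, and leaving out the 6% most doublet-like cells was an alternative.

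Counts were summed per group of cells and divided by the group's UMIs (CPM, exact Poisson intervals). Ratios have exact binomial intervals and shares Clopper-Pearson intervals after thinning. Genes with at least 50 UMIs over both groups and 10 CPM in one were tested for a 2-fold ratio, and a group at 0 UMIs is bounded by 3 UMIs. A gene very low in one group can meet the limit through the other alone, and its call is then fixed. The scripts were tested on simulated counts. Python 3.11.15, numpy 2.4.6, scipy 1.17.1, pandas 2.3.3 and matplotlib 3.10.9 were used. Every member was named or counted in each comparison, and counts of partners past 2-fold were given for DLX status only. Some results on genes of the ventral forebrain are not reported here. Members, lists and tests were chosen with earlier results of these data known.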

Additional observations from a re-analysis of the deposited data

Results flagged for a closer look

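Among genes with enough counts in each setting of a contrast and with intervals that leave out 0, 4 results pointed in opposite directions, and with 1 library per condition none of these differences was tested. LMO4 was higher with XAV939 at D5 (log2 ratio 0.16) and lower at D10 (-0.20). LHX5 was lower at D10 than at D5 under dSMADi (-0.87) and higher with XAV939 (0.54). Of the D10_XAV939 LHX5 UMIs, 309 of 1135 lay in 66 cells high in STMN2, and without such cells the latter ratio was 0.13 (-0.00 to 0.26). LMO1, below the limit of 10 CPM, also differed in direction with XAV939, at -0.98 (-1.21 to -0.76) at D5 and 1.94 (1.49 to 2.40) at D10.

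The ratio of LMO4 between DLX-positive and DLX-zero cells was -0.36 at D22 and -0.32 at D24 but 0.46 on the last day, D26. The ratio of LMO3 between DLX-positive cells high and below in GNRH1 was 0.69 at D24 and -1.10 at D26. At D26 the DLX-positive cells below the GNRH1 limit held 326 LMO3 UMIs, 35 of them in 3 cells.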

How the results depend on the processing

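Of 718 log2 ratios of single genes under alternatives, 706 kept their direction, and the 12 that did not all had a main value under 0.5 on the log2 scale, 11 of them in the GNRH1 comparisons. Of 149 counts of members past 2-fold, 128 stayed within 1.5 times. With all genes above 3 UMIs admitted, the counts were 8 for D5_dSMADi over D0 (3 in the main setting), 4 for D10 over D5 under dSMADi, 2 with XAV939, 2 for XAV939 at D10, 4 for D26 over D24, and 2 for GNRH1 at D24 and at D26. With a fold of 1.5 they were 3 for D10 over D5 under dSMADi, 2 for XAV939 at D10, 1 for GNRH1 at D24 and 2 at D26. With a fold of 3 they were 1 for XAV939 at D5, 3 for D24 over D22, 0 for D26 over D24 and 0 for GNRH1 at D26. Scaling without GNRH1, mitochondrial and ribosomal genes gave 2 for D10 over D5 under dSMADi. This scaling moved the median of all genes by 0.18, -0.16 and -0.17 (log2) for D5_dSMADi over D0 and for D10 over D5 without and with XAV939, and by -0.22 for STMN2 in D10_dSMADi. For GNRH1 at D26 the count was 3 in cells of a limited depth range, 0 with GNRH1 at 1000 CPM and 0 against cells with 0 UMIs of GNRH1. LMO3, the 1 gene past 2-fold there, had log2 ratios of -0.92, -1.5 and -0.80 with GNRH1 at 1000, at 10000 and against 0 UMIs. Alternatives chosen after seeing the data left out STMN2-high cells, which gave 1 gene past 2-fold for XAV939 at D10 (LHX5; 0 in the main setting), left out cells high in GNRH1, which gave ISL1 ratios by DLX status of 2.00, 5.57 and 4.55, or split the dividing cells of D22, which gave 3 genes past 2-fold in DLX-zero and 1 in DLX-positive cells. The causes were not tested.

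No replicate exists for any condition, so a difference between libraries cannot be told apart from a difference between cultures, or, for D22, D24 and D26, between runs. No paired analysis was possible because each condition is 1 library. Depth limits what can be said of LHX6, LHX8, early ISL1 and late LMO1.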

Other observations

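DLX-zero cells with at least 3 UMIs of IRX1, IRX2, IRX3 and IRX5, genes of more posterior neural tissue, numbered 470, 134 and 155 at D22, D24 and D26. LHX2 was at 44.2, 60.6 and 49.8 CPM in them and at 266, 422 and 169 in DLX-zero cells with none of these UMIs, and LHX9 at 23.7, 32.9 and 51.5 against 163, 185 and 134. LHX1 did not follow them at D24, where it was at 219 against 221 CPM. On the other days it was found in fewer of the IRX cells after thinning to 1500 UMIs. At D26 its shares were 11.6% (7.03 to 17.7) against 21.0% (20.1 to 21.8). At D22 they were 1.91% (0.879 to 3.60) against 3.79% (3.35 to 4.27), with intervals that overlap.

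A few DLX-zero cells were high in GNRH1, 35 at D24 and 89 at D26. ISL1 was at 204 (153 to 265) and 183 (153 to 218) CPM in them. In DLX-positive cells it was at 91.9 and 109.7 CPM. In those of them high in GNRH1 it was at 96.0 (82.7 to 111) and 133 (125 to 141). After thinning to 1500 UMIs the shares of GNRH1-high cells with ISL1 overlapped. At D24 they were 17.1% (6.56 to 33.6) of DLX-zero and 13.8% (9.45 to 19.2) of DLX-positive cells. At D26 they were 21.3% (13.4 to 31.3) and 17.1% (14.4 to 19.99). The 49 DLX-zero cells of D26 with at least 3 ISL1 UMIs held LMO4 at 343 CPM, against 93.5 in DLX-zero cells without ISL1.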
